A study of Mus musculus with 20 samples.

Results

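miR-6364 is a mouse microRNA (miRNA) with a high registry number, measured here in the liver of PiZ and wild-type (WT) mice. The row mmu-miR-6364 was chosen by its higher reads in PiZ than in WT liver, so that difference is described here with no test. It is 1 of 880 miRNAs listed in every count file. The study sequenced small RNA from the livers of C57BL/6 mice aged 6 weeks, 5 with the genotype PiZ and 5 WT. Every library was run in technical duplicate, giving 20 count files, and the 2 runs of a mouse were added together, with the mouse as the replicate. No treatment is given in the labels, and neither the promoter that drives the transgene nor the sex of the mice is stated there. PiZ mice are known to carry human alpha-1 antitrypsin in its Z form, a protein that liver cells normally secrete; the Z protein misfolds and builds up in the endoplasmic reticulum.

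A miRNA is cut from a hairpin in a longer transcript, first in the nucleus by Drosha and then in the cytoplasm by Dicer. One strand is loaded into an Argonaute protein, and bases 2 to 8 of that strand, the seed, pair with target messages. miRNAs with high numbers entered the registry late, mostly from deep sequencing, and few of them have a described function.

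The files fall into 2 sets by the list of names they hold, 1399 miRNAs in the longer and 990 in the shorter. PiZ mice 1 and 2 and WT mice 1 to 3 have the longer list, and PiZ mice 3 to 5 and WT mice 4 and 5 have the shorter. Reads in the 880 shared miRNAs ran from 1307849 to 10780704 per mouse, and the mice of the shorter list were the deeper ones. miR-22-3p took 59.7% of the reads in WT mouse 1 and 52.2% in WT mouse 3, against 38.5% to 46.1% in the other mice, so these libraries stand apart and results that rest on them are also given without them. miR-122-5p, the defining miRNA of hepatocytes, lay between 6806 and 11136 CPM (counts per 1000000 reads, with library sizes scaled by the trimmed mean of M-values, TMM) in the PiZ mice and between 11667 and 14243 CPM in the WT mice. It was lower in every PiZ mouse than in any WT mouse, and its part in the results was not tested.

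The sequences are shown to set the seed of miR-6364 beside those of miRNAs whose level varied most like it. Of the 889 single names listed in every file, 747 matched a mature sequence in the table, and the comparison of sequences covers only the table's entries. Of the 10 miRNAs most like it in level, miR-449b, miR-34c-5p and miR-708-3p are named only. The printed sequences are from RefSeq, annotated on GRCm38.p6, and are written 5′ to 3′. In the hairpin the capitals mark the mature miRNA, and in each mature sequence they mark the seed.
miR-6364 hairpin: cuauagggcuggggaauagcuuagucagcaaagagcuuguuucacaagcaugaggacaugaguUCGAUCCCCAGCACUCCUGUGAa
miR-6364: uCGAUCCCcagcacuccuguga
miR-216b-5p: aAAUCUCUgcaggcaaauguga
miR-708-5p: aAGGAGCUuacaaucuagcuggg
miR-34b-5p: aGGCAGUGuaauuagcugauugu
miR-34b-3p: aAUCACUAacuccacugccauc
miR-34c-3p: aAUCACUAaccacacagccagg
miR-410-3p: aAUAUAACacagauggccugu
miR-217-5p: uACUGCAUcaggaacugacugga

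The hairpin of miR-6364 has 86 bases and the mature miRNA is its bases 64 to 85, at the 3′ end. No other of the 1679 mature names in the RefSeq table has the seed CGAUCCC, and none shares bases 2 to 7. The nearest mature sequences, miR-194-5p and miR-5100, are 8 edits away. miR-34b-3p and miR-34c-3p are the pair among the printed sequences that share a seed, AUCACUA.

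The predicted fold of the hairpin (RNAfold) had an energy of -35.5 kcal/mol, or -0.41 per base, the same as the median of 1005 mouse hairpins to 2 decimals. Of the 22 mature bases 15 were paired in it, and of the 7 seed bases 4. The letters GUUCGANNC, with N for any base, the consensus of the internal B box of RNA polymerase III promoters known from transfer RNA genes, were found at hairpin bases 62 to 70, of which 7 lie in the mature miRNA. These letters occurred in 5 of the 1005 hairpins (0.498%) and on the other strand in 1 (0.0995%). A match of letters is a description and not a promoter. No GENCODE transcript of another gene, of 141767 transcripts from 55341 genes searched on both strands, matched the mature sequence with up to 2 mismatches. That search covered annotated transcripts only, not the rest of the genome.

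The hairpin lies on the minus strand at chr16:5215789-5215874 (GRCm38), with the mature miRNA at chr16:5215790-5215811. GENCODE places it in an intron of AU021092, a protein-coding gene on the same strand at chr16:5211823-5222299, in the 1269 bases between exons 5 and 6 of 8. It starts 102 bases after exon 5 and ends 1081 bases before exon 6, and no exon of another gene overlaps it. Nagpa, which encodes an enzyme of lysosomal sorting, is 11776 bases away, and Alg1, which encodes an enzyme of N-glycan assembly in the endoplasmic reticulum, is 17746 bases away. GENCODE also lists 2 miRNA genes on the other strand nearby, Gm23689 at 7489 bases and Gm26095 at 12045 bases. Small RNA counts do not measure the host gene, so its own level is not known here.

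In PiZ liver miR-6364 had 128, 137, 827, 590 and 126 reads in mice 1 to 5. In WT liver it had 4, 2, 3, 16 and 23 reads. All 20 files hold a whole number for this miRNA. PiZ mouse 5, as deeply sequenced as PiZ mice 3 and 4, had the fewest reads of the PiZ mice, and the WT mice of the longer list had fewer than 5 each.

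Scaled for depth, the level was 52.4, 54.0, 82.8, 52.4 and 15.1 CPM in PiZ mice 1 to 5. It was 2.86, 1.04, 1.68, 2.42 and 2.50 CPM in WT mice 1 to 5. The groups did not overlap, and the lowest PiZ mouse was 5.27 times the highest WT mouse. Of the 336 miRNAs tested, 22 had every PiZ mouse above every WT mouse (6.55%) and 8 had every PiZ mouse below (2.38%). miR-6364 was chosen on this contrast, so its place among the 22 is no finding.

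The group means were 51.3 ± 24.0 CPM in PiZ and 2.10 ± 0.730 CPM in WT (SD, n = 5 each), a log2 ratio of 4.61. The fitted log2 fold change was 4.55 with a standard error of 0.48, the 10th largest of 336. With the reads of each genotype pooled, the PiZ level was 23.8 times the WT level, with an exact 95% interval of 17.9 to 32.4 for counting error only. That interval holds none of the spread between mice. Reads carry no molecular identifiers, so copies made by amplification cannot be told from separate molecules.

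**Figure D1:**
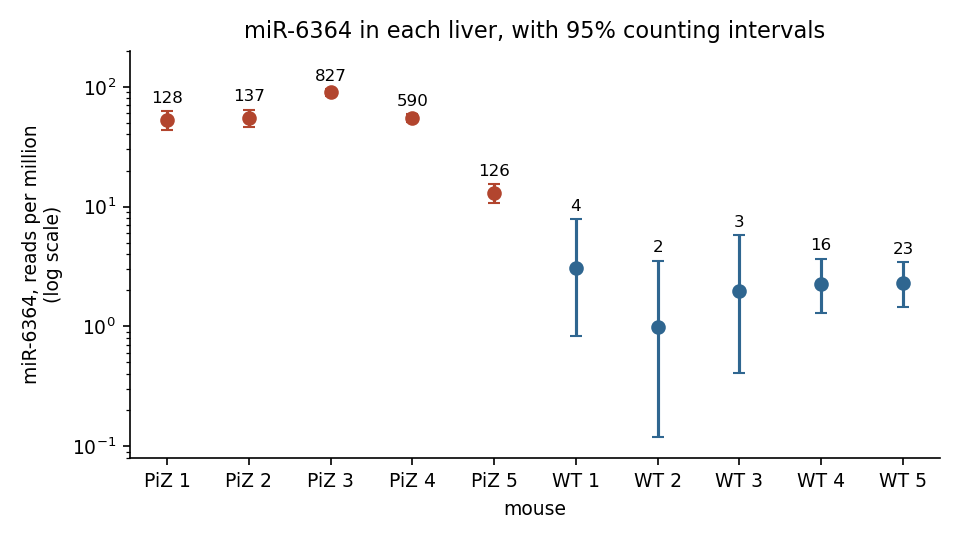
Level of miR-6364 in RPM (reads per 1000000 reads) in each mouse, on a log scale and with no TMM scaling; bars are exact 95% counting intervals and the number above each bar is the reads. The PiZ mice lie above the WT mice, and PiZ mouse 5 lies between the other PiZ mice and the WT mice.

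The counting error differs widely between the mice. In WT mouse 2 the 2 reads stand for 0.980 RPM, with an exact (Clopper-Pearson) 95% interval of 0.119 to 3.54. In PiZ mouse 5 the 126 reads stand for 12.9 RPM, with an interval of 10.7 to 15.3. The intervals of the 5 WT mice overlap one another, so no order among them can be read at this depth. The interval of PiZ mouse 5 overlaps none of the other mice, and that of PiZ mouse 3 (83.7 to 96.0) lies above all the others.

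Among the 880 listed miRNAs, miR-6364 ranked 149 by mean CPM in PiZ liver and 303 in WT liver. Its rank in single mice was 125 to 192 in PiZ and 279 to 339 in WT. It made up 0.00513% of the scaled reads in PiZ and 0.000210% in WT. Its neighbours in PiZ were miR-339-5p (54.7 ± 3.24 CPM) just above and miR-338-3p (51.1 ± 5.34 CPM) just below. Both differ from it by less than its SD of 24.0 CPM. In WT they were miR-700-5p (2.11 ± 1.04 CPM) and miR-16-2-3p (2.07 ± 1.25 CPM), again within its spread (SD, n = 5 for each).

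Within PiZ the log2 level of miR-6364 had an SD of 0.91, the 49th largest of 336, where the median miRNA had 0.37. Within WT the SD was 0.48, the 194th, against a median of 0.53. PiZ mice 1, 2 and 4 lay within 52.4 to 54.0 CPM, with mouse 3 above them and mouse 5 below.

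Late-numbered mouse miRNAs, taken here as those with a number of 5000 or above, form the class miR-6364 belongs to by name. Of 210 such miRNAs listed in every file, 19 had no read in any mouse, 16 had a read in every mouse, and 9 passed the filter on low counts. miR-6364 was the 3rd most abundant of the 210 in PiZ and the 10th in WT. Of the 8 others that passed the filter, 0 were higher and 0 lower in PiZ in the edgeR quasi-likelihood fit, with 0 at an unadjusted p under 0.05, where 28 of all 336 were higher (8.33%) and 3 lower (0.893%) at a Benjamini-Hochberg adjusted p under 0.05. DESeq2 and limma-voom also called 0 of the 8, with 2 and 1 at an unadjusted p under 0.05, and edgeR called 1 lower, miR-6389, without PiZ mouse 5. The median log2 fold change of the 8 was -0.16, against 0.07 over all 336.

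The more abundant ones did not share its pattern by value. miR-6389 had 544 ± 189 CPM in PiZ and 715 ± 85.8 CPM in WT. miR-6390 had 495 ± 186 CPM in PiZ and 711 ± 335 CPM in WT. miR-8112, the next tested one below miR-6364 in PiZ, had 16.1 ± 3.16 CPM in PiZ and 14.4 ± 6.19 CPM in WT (SD, n = 5 each). The groups overlap for all 3. The remaining 5, miR-6412, miR-6978-3p, miR-7015-3p, miR-7688-5p and miR-7219-3p, had group means between 1.80 and 5.80 CPM in both genotypes.

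**Figure D2:**
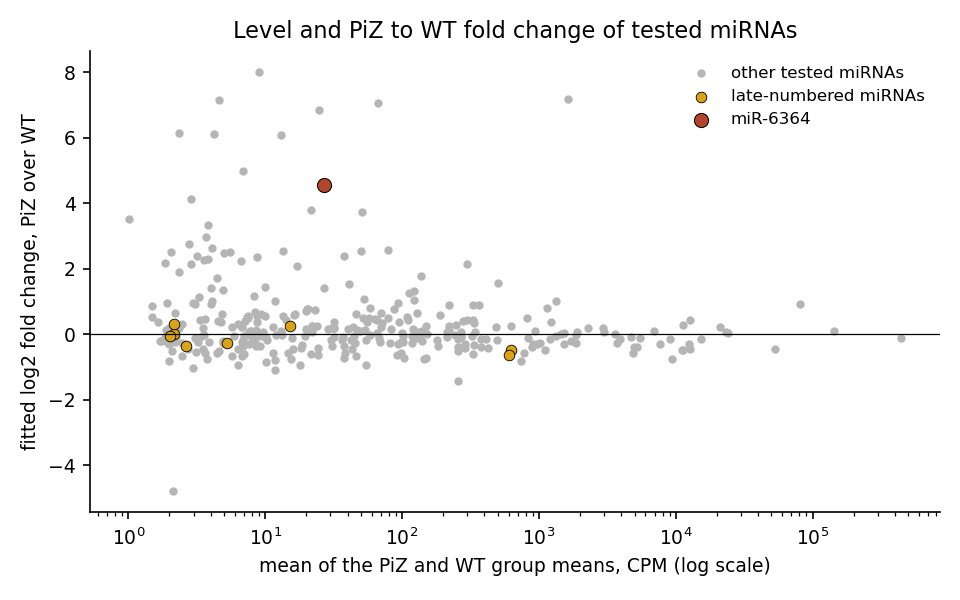
Each point is 1 of 336 miRNAs, with the mean of its group means in CPM (log axis) against its fitted log2 fold change of PiZ over WT. miR-6364 lies at 4.55, and the 8 other late-numbered miRNAs lie near 0.

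Not every tested name could be given a position. The nearest of the tested miRNAs placed on chromosome 16 was miR-193b-3p, 8233780 bases away. It had 6.86 ± 2.25 CPM in PiZ and 9.05 ± 4.60 CPM in WT (SD, n = 5 each). Of the 15 other tested miRNAs of the chromosome, both arms of miR-130b were above all WT mice in all 5 PiZ mice, where 6.55% of all 336 were, and the median log2 fold change of the 15 was -0.07, against 0.07 over all 336.

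The miRNAs whose level varied most like miR-6364 over the 10 mice, by Pearson r of log2 CPM, were miR-449b, miR-216b-5p, miR-34c-5p, miR-708-5p, miR-34b-5p, miR-708-3p, miR-34b-3p, miR-34c-3p, miR-410-3p and miR-217-5p. These 10 of 335 had r from 0.91 to 0.98, and Spearman's rho from 0.74 to 0.90. The next miRNA had an r of 0.90, and the median over the 335 was 0.10. With the genotype means subtracted, r of the 10 ran from 0.68 to 0.90, against a median of -0.02. Over the PiZ mice alone r of the 10 was 0.95 to 0.99. Over the WT mice alone it was -0.62 to 0.57. There miR-6364 had 2 to 23 reads per mouse. miR-449b, miR-216b-5p, miR-217-5p and miR-708-5p had 1 or 2 reads in all of WT. At such counts r within WT cannot show whether the likeness is present or absent there. The values describe these mice only, since the points share libraries, depth, genotype and the low PiZ mouse.

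The miR-34 miRNAs are known as targets of p53, and miR-34 and miR-449 together as a family in ciliated and stressed cells. miR-34c-5p had 3424, 3395, 5408, 3938 and 95.8 CPM in PiZ mice 1 to 5. In WT it had 19.3, 14.6, 17.4, 38.8 and 20.4 CPM. As for miR-6364, mouse 3 was the highest PiZ mouse and mouse 5 the lowest, and the groups did not overlap. miR-34b-5p had 197, 138, 193, 127 and 4.42 CPM in PiZ and at most 1.41 CPM in WT. miR-449b had 1.20 to 13.5 CPM in PiZ, with 2 reads in all of WT. miR-34a-5p, of the same family, had 20.4 to 56.6 CPM in PiZ and 16.2 to 36.2 CPM in WT, so its groups overlapped. They also overlapped for miR-449a-5p, with 0.239 to 1.00 CPM in PiZ and 0 to 1.56 CPM in WT. For miR-34b-3p and miR-34c-3p PiZ mouse 5 stood at 0.498 and 0.526 times the highest WT mouse.

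miR-708 is known to be induced with its host gene by the endoplasmic reticulum stress factor CHOP. miR-708-3p had 13.9, 16.5, 17.8, 17.4 and 1.20 CPM in PiZ mice 1 to 5 and 0 to 0.606 CPM in WT. miR-708-5p had 0.478 to 17.8 CPM in PiZ and 1 read in all of WT. Both arms were lowest in PiZ mouse 5.

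miR-216b and miR-217 are known from the pancreas and its acinar cells. miR-216b-5p had 13.1, 21.7, 43.2, 10.3 and 1.32 CPM in PiZ mice 1 to 5, with 1 read in all of WT. miR-217-5p had 2.46, 5.12, 11.9 and 3.99 CPM in PiZ mice 1 to 4, with no read in PiZ mouse 5 and 1 in all of WT. The 4 pancreas markers together summed to 12.2 to 80.9 CPM in PiZ and 5.74 to 17.2 CPM in WT, with none of the 4 at 0 in all mice. The sum also holds miR-216a-5p, with 0.120 to 10.9 CPM in PiZ and 0 to 2.14 CPM in WT. It holds miR-375-3p too, with 3.68 to 14.8 CPM in PiZ and 5.22 to 15.0 CPM in WT. The fitted log2 fold change of miR-375-3p was -0.08. The part of pancreas tissue or cells in the miR-6364 level was not tested.

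miR-410-3p, from the imprinted cluster of chromosome 12, had 68.3, 48.5, 130, 55.5 and 12.3 CPM in PiZ mice 1 to 5. In WT it had 8.94 to 14.6 CPM. Here the low PiZ mouse lay among the WT mice, unlike for miR-6364.

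PiZ mouse 5 was the lowest PiZ mouse for 10 of the 10 companions, and mouse 3 the highest for 9. The distance to the other PiZ mice was not the same for all. PiZ mouse 5 had 0.288 of the next lowest PiZ mouse for miR-6364. The same ratio was 0.254 for miR-410-3p, 0.146 for miR-449b, 0.0347 for miR-34b-5p and 0.0282 for miR-34c-5p. Relative to the highest WT mouse, PiZ mouse 5 stood at 5.27 times for miR-6364, 2.47 times for miR-34c-5p and 0.846 times for miR-410-3p.

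**Figure D3:**
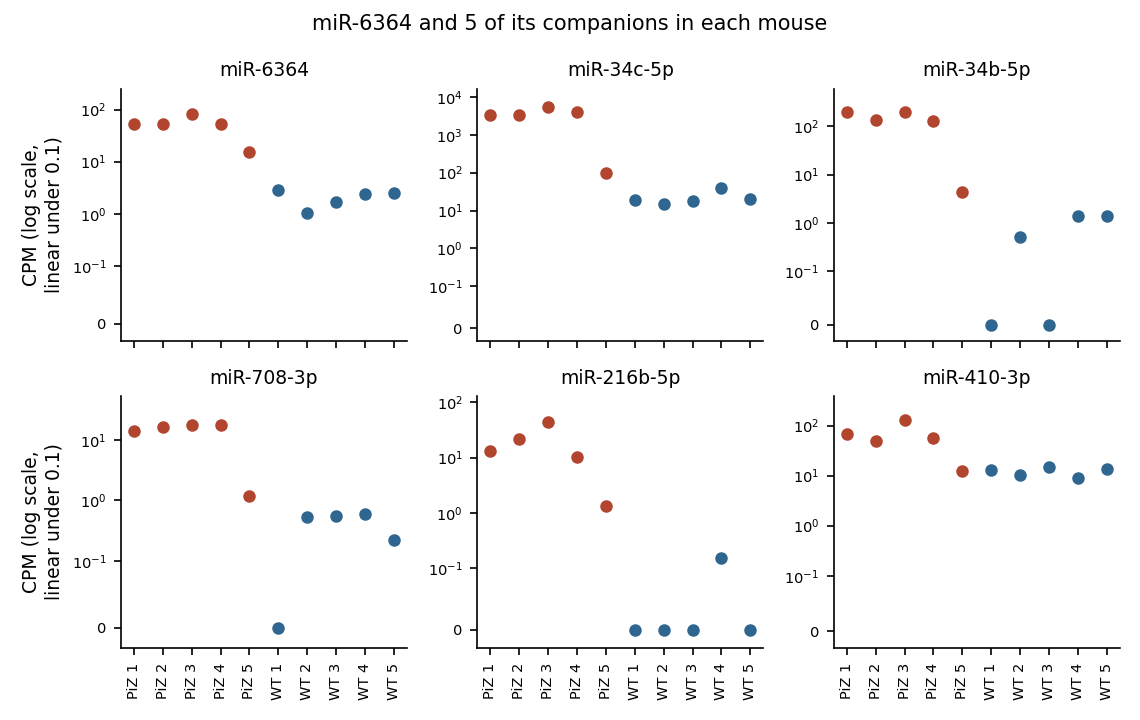
CPM of miR-6364 and 5 miRNAs of similar pattern in each mouse, on an axis that is logarithmic above 0.1 CPM and linear below it; red points are PiZ and blue points WT. PiZ mouse 5 is the lowest PiZ mouse in every panel.

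All 10 companions passed the edgeR quasi-likelihood test as higher in PiZ, and for 6 of them all 5 PiZ mice lay above all WT mice. They were picked for likeness to a miRNA chosen on that contrast, so nothing is read from these counts. The number of calls changed with the mice included. Without WT mice 1 and 3, 0 of the 10 passed and 1 of all 336 did. In that edgeR fit 10 of the 10 and 87 of the 336 had an unadjusted p under 0.05, in either direction. With all mice these were 10 and 82. The median log2 fold change of the 10 was 6.39 without those WT mice and 6.50 with all mice. With limma-voom in place of edgeR, 2 of the 10 and 5 of the 336 were higher.

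The miRNAs most opposite to miR-6364 over the 10 mice were miR-26a-5p (r = -0.95), miR-1948-3p (-0.92), miR-871-3p (-0.92), miR-664-3p (-0.83) and miR-1843a-5p (-0.83). miR-26a-5p had 38884 to 53709 CPM in PiZ and 59159 to 62961 CPM in WT, with PiZ mouse 5 the highest PiZ mouse. miR-1948-3p had 73.0 to 268 CPM in PiZ and 288 to 470 CPM in WT, again with mouse 5 the nearest to WT. For both, PiZ mouse 3 was the lowest PiZ mouse and mouse 5 the highest, the reverse of miR-6364.

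With the genotype means subtracted, the 5 highest were miR-409-3p (r = 0.96), miR-134-5p (0.91), miR-434-3p (0.91), miR-128-3p (0.91) and miR-34c-5p (0.90). The first 3 come from the imprinted region of chromosome 12. miR-34c-5p was the 1 miRNA in both sets. miR-409-3p had 25.4, 22.5, 66.6, 23.1 and 1.55 CPM in PiZ mice 1 to 5 and 3.36 to 12.2 CPM in WT, so its low PiZ mouse was under every WT mouse.

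**Figure D4:**
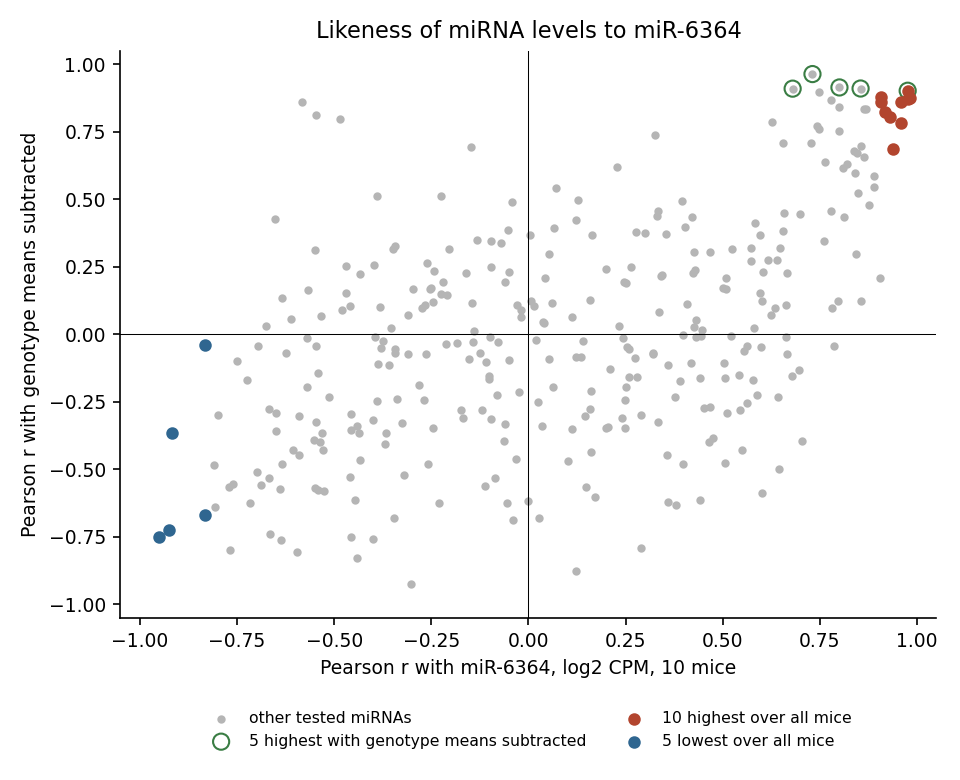
Pearson r of each of 335 miRNAs with miR-6364 over 10 mice (x axis) against r with the genotype means subtracted (y axis). The 10 highest over all mice lie at 0.91 to 0.98 on the x axis and 0.68 to 0.90 on the y axis.

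The lists were chosen with earlier results of these data known and are given as counts. Of the unfolded protein response and cell stress miRNAs, 7 of 11 tested were higher in PiZ in the edgeR quasi-likelihood fit (8.33% of all 336), 0 were lower (0.893% of all 336), and the median log2 fold change was 6.07 against 0.07 over all 336. Those 7 are the miR-34b, miR-34c and miR-708 arms and miR-449b, all companions of miR-6364. Of these, 5 had 1 to 8 reads in all of WT and miR-34b-5p had 23. All of these passed the filter through PiZ, so the count is a description. The other tested members were not called. Their log2 fold changes were 0.15 for miR-34a-5p, -0.37 for miR-30c-2-3p, -0.64 for miR-455-5p and -0.83 for miR-455-3p. The list has 15 members, of which 14 were listed in every file and 11 were tested. Left out by the filter were miR-449a-5p, miR-211-5p and miR-204-5p, and the groups overlapped for each. miR-211-5p had 0.409 to 2.30 CPM in PiZ and 0 to 1.63 CPM in WT. miR-204-5p had 2.61 ± 4.70 CPM in PiZ and 0.207 ± 0.238 CPM in WT (SD, n = 5 each). Its level in PiZ mouse 5 was 0.120 CPM, below the highest WT mouse at 0.560 CPM. For 5 of the 11 all PiZ mice lay above all WT mice (6.55% of all 336), and for 7 of 11 PiZ mice 1 to 4 did, against 14.9% of all 336 for those 4 mice. Without WT mice 1 and 3, 0 of the 11 passed the edgeR test, and with limma-voom 2 did.

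Of the 4 pancreas markers, 2 were higher in the edgeR fit, miR-216b-5p and miR-217-5p, where 8.33% of all 336 were. Each had 1 read in all of WT and passed the filter only through PiZ, so the count supports nothing. Without WT mice 1 and 3, or without WT mouse 4, 0 were, and with limma-voom 0. Of the 28 tested members of the hepatocyte, immune, endothelial, stellate, biliary and erythroid lists, 0 passed in either direction in the edgeR fit, with 9 at an unadjusted p under 0.05; limma-voom also called 0, DESeq2 called 2 higher (miR-144-3p and miR-223-3p) and 1 lower (miR-122-5p), and edgeR called 4 higher without PiZ mouse 5 (miR-144-3p, miR-144-5p, miR-451a and miR-223-3p). By non-overlap of the groups with no test, miR-122-5p of hepatocytes was below all WT mice in every PiZ mouse (2.38% of all 336), and miR-223-3p of myeloid cells and miR-200a-3p and miR-141-3p of biliary epithelium were above them (6.55%). miR-223-3p had 23.6 to 28.5 CPM in PiZ and 9.29 to 21.8 CPM in WT, and miR-200a-3p had 17.2 to 22.7 CPM in PiZ and 8.58 to 16.3 CPM in WT. miR-141-3p had the same CPM as miR-200a-3p in WT mice 1 to 4 and in PiZ mice 3 and 5. These 2 are therefore not read as separate observations. For the other biliary members, miR-200b-3p, miR-200c-3p and miR-429-3p, the groups overlapped. The part of any of these cell types in the miR-6364 level was not tested. The median log2 fold changes of the 6 lists were 0.08, 0.59, 0.07, 0.14, 0.49 and 1.34 in that order. The erythroid miRNAs summed to 310 to 1750 CPM in PiZ and 259 to 1079 CPM in WT. In whole liver, fewer cells of a type and less RNA per cell cannot be told apart.

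The contrasts that did not choose miR-6364 were tested. Between the sets of files at equal genotype, its level differed by 0.10 on the log2 scale (shorter over longer list, SE 0.44, 95% interval -0.86 to 1.07, edgeR quasi-likelihood adjusted p = 0.975). In an exact two-sided permutation test of its log2 CPM within genotype the difference was 0.02 with p = 1, where the smallest p the 100 permutations can give is 0.01. The shorter list was lower by value within PiZ (-0.39) and higher within WT (0.43). This term was called for 2 of 336 miRNAs (0.595%).

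The PiZ to WT difference of miR-6364 was 0.53 lower on the log2 scale by value in the shorter set (-0.53, SE 0.96, 95% interval -2.67 to 1.60, edgeR quasi-likelihood adjusted p = 0.897). The interval is wide, so a difference of several fold between the sets was not detectable with these mice. Without WT mice 1 and 3 the value was -1.28, without PiZ mouse 3 it was -1.02, and without PiZ mouse 5 it was -0.05. For this interaction 0 of 336 miRNAs were called (0%) by edgeR, with 13 at an unadjusted p under 0.05, and DESeq2 and limma-voom also called 0.

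The runs of a library gave 83 and 45, 88 and 49, 408 and 419, 292 and 298, and 66 and 60 reads of miR-6364 in PiZ mice 1 to 5. In WT mice 1 to 5 they gave 3 and 1, 1 and 1, 0 and 3, 7 and 9, and 15 and 8. Run 1 held 62.3% to 63.5% of all reads in the longer set, and 49.5% to 49.8% in the shorter set. By exact two-sided binomial tests against those shares, 0 of 10 mice differed between runs after Benjamini-Hochberg adjustment, and the lowest p was 0.0488 (adjusted 0.488) in WT mouse 3. The tests cover technical agreement of 1 library with itself.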

How the data were processed

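Small RNA of 10 mouse livers was sequenced in 2 technical runs per library. The authors deposited 1 table of estimated counts per run, and the submitters' processing notes name CASAVA. Which aligner and registry release were used, and how multiple matches were counted, is not stated in the labels. Runs were summed per mouse and rounded over the 880 miRNAs listed in every file. edgeR 4.0.16 (filterByExpr, TMM, quasi-likelihood F-test, file set plus genotype, R 4.3.3) tested 336 miRNAs with Benjamini-Hochberg adjustment at 0.05. DESeq2 1.42.0, limma-voom (limma 3.58.1), other scalings, single runs and left-out mice were alternatives. The edgeR fits of the file set and interaction terms were also run on simulated data. Log2 CPM used a prior count of 2. Intervals of read shares and of the pooled ratio are exact at 95% and cover counting error only. The 95% intervals of the file set and interaction terms come from the fitted standard error and a t distribution. They rest on the spread between mice. Nothing states that the mice came from separate litters, so p-values measure the spread between these mice.

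The members and lists were chosen with earlier results of these data known. Named miRNAs are miR-6364, the 10 highest and 5 lowest by r, the 5 highest with genotype means subtracted, rank neighbours, tested late-numbered miRNAs, miR-122-5p, and list examples. The companion and list calls under other tools and left-out mice were added after the data were seen.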

Additional observations from a re-analysis of the deposited data

Results flagged for a closer look

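Within each group of 5 mice, the gap of the highest or lowest mouse to its nearest neighbour was divided by the range of the group on the log2 CPM scale, and a share above 0.71 was marked. In groups not chosen by their values and without repeated zero counts, chance would mark about 1 in 20. That is 2.9 of the 58 groups of the 29 miRNAs looked at, and 12 were marked. Most of these miRNAs were picked by their values and some groups are mostly zeros, so the 12 cannot be set against that rate. PiZ mouse 5 gave 8 of the 12.

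PiZ mouse 5 was the lowest PiZ mouse, with a gap share of 0.7295 for miR-6364, 0.7774 for miR-449b, 0.8845 for miR-34c-5p, 0.8834 for miR-34b-5p, 0.9016 for miR-708-3p, 0.8029 for miR-34b-3p and 0.7896 for miR-128-3p. It was the highest PiZ mouse for miR-871-3p, with a share of 1.0, where the other PiZ mice had no read. The miRNAs were mostly picked for likeness to miR-6364, so these marks are not independent of each other.

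Among the WT mice, mouse 4 was the highest for miR-449b, miR-216b-5p and miR-217-5p, and mouse 5 for miR-708-5p, each with a share of 1.0. In each case the other WT mice had no read, and the marked mouse had 1 or 2.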

How the results depend on the processing

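The log2 ratio of miR-6364 was 4.27 to 4.87 over 21 alternatives, including without WT mice 1 and 3, and its rank 145 to 154 in PiZ and 282 to 311 in WT. The file set difference changed sign with limma-voom (-0.24), with run 2 alone (-0.11) and with a mouse left out (-0.24 without PiZ mouse 3 to 0.37 without PiZ mouse 5; -0.02 without WT mouse 2), with adjusted p from 0.610 to 1. The interaction changed sign with run 2 alone (0.30) and was -1.13 with run 1 alone, -1.28 without WT mice 1 and 3, and -1.02 to -0.05 with 1 mouse left out (-1.02 without PiZ mouse 3, -0.94 without WT mouse 1, -0.23 without WT mouse 2, -0.05 without PiZ mouse 5); its adjusted p ran from 0.795 to 1.00. The cause was not tested. By Spearman's rho, 5 of the 10 companions remained.

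Calls of higher level in PiZ changed with the setting. With limma-voom they were 2 in the stress list, 0 in the pancreas list, 2 among the companions and 5 among all 336. Without WT mice 1 and 3 these were 0, 0, 0 and 1. Leaving out 1 mouse gave 5 to 7, 0 to 3, 6 to 10 (6 without WT mouse 4 or 5) and 7 to 45 (7 without WT mouse 4 or 5, 8 without PiZ mouse 1 or WT mouse 1 or 2, 14 without WT mouse 3, 16 without PiZ mouse 2 or 3, 45 without PiZ mouse 5). Without WT mice 1 and 3, counts at an unadjusted edgeR p under 0.05 in either direction were 8, 3, 10 and 87. With all mice they were 8, 3, 10 and 82. Among the other cell type markers the edgeR count of 0 calls became 2 in DESeq2 and 4 without PiZ mouse 5. Counts of miRNAs with all PiZ above all WT mice were 50 of 336 and 3 pancreas markers without PiZ mouse 5, and 1 late-numbered miRNA other than miR-6364 without WT mice 1 and 3. File set calls were 2 of 336 in edgeR, 9 in DESeq2, 17 with no filter, 1 without WT mouse 2 or 3, and 0 with run 2 alone, without WT mice 1 and 3, or without any of PiZ mice 1 to 5 or WT mice 1 and 5. Interaction calls were 0 in edgeR, 6 with no filter and 16 without WT mouse 2.

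With 2 to 23 reads per WT mouse, differences within WT were not detectable at this depth. No paired analysis was possible because the labels number 2 technical runs of 1 library, and mouse numbers name different animals.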
